A study of Arabidopsis thaliana with 18 samples.

Results

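The comparison set Arabidopsis thaliana rosettes exposed to sound at 500 Hz against rosettes exposed to sound at 250 Hz, with 3 arrays in each group, 6 of the 18 arrays of the series. All plants were of the Columbia accession (Col-0), were raised in continuous light at 22 °C, and at the age of 20 days received a single frequency at 80 dB for 1 h in a soundproof chamber. The remaining arrays came from plants given 1000, 2000 or 3000 Hz in the same way, and from plants that stayed in the chamber in silence. The members were chosen by array title, no silent array entered the test, and 22746 of the 22810 probe sets were tested after 64 control probe sets of the manufacturer had been set aside. Replicates were labelled as biological, and whether each was 1 plant or a pool of plants is not given in the sources used here. A rosette holds many cell types, so fewer cells of a type and less RNA per cell cannot be told apart in any value that follows.

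Plants have no ear, but leaf surfaces move with sound, and vibration, touch and wind are known to act through calcium, reactive oxygen and rapidly induced transcripts. Among the functions measured here, chloroplasts keep a small genome whose photosynthesis genes are transcribed in long clusters, glutamate receptor-like channels carry calcium in wound and touch signalling, and thionins and methyl salicylate belong to defence. Tubulins, core histones and replication proteins are made in growing and dividing cells, and expansins and cellulases loosen or remodel the wall as those cells enlarge.

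The tissue was checked against a leaf marker and 3 root markers. RCA (AT2G39730), which encodes Rubisco activase, read 14.17 to 14.21 on the log2 scale at 250 Hz and 14.09 to 14.29 at 500 Hz. The root hair expansin EXPA7 (AT1G12560) read 5.08 to 5.25 and EXPA18 (AT1G62980) 4.61 to 5.13 over the same 6 arrays, whereas PYK10 (AT3G09260), also a root marker, read 5.64 to 7.94 at 250 Hz and 4.32 to 6.02 at 500 Hz. Array medians lay between 6.52 and 6.63, the mean of 24 poly-A spike probe sets lay between 5.37 and 5.57, and the 3′ actin probe set exceeded the 5′ one by 1.85 to 2.13 at 250 Hz and by 1.74 to 2.30 at 500 Hz. The spike mean was 5.48 to 5.59 at 1000 Hz, but 6.20 to 6.51 at 2000 Hz and 5.99 to 6.34 at 3000 Hz. The 2000 and 3000 Hz arrays thus differed technically from the 6 compared, and the part of this in values set beside them was not tested.

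The 2 frequencies differed at 2032 probe sets, 8.93% of those tested, by limma at a Benjamini-Hochberg adjusted p under 0.05. At 500 Hz 890 probe sets were higher (3.91%) and 1142 were lower (5.02%), and 221 of the 2032 changed at least 2-fold (0.972%), 96 upward and 125 downward. Counts of list members below are to be read against these shares of 3.91% higher and 5.02% lower. The median difference over all probe sets was 0.02, and 53.4% of them were positive. The spread in this test came from the 15 arrays of the 5 sound groups. With the 6 arrays alone, 601 probe sets passed (2.64%), 1.26% higher and 1.38% lower, with 543 of them among the 2032 and all 543 in the same direction. Leaving out replicate 1, 2 or 3 of the 250 Hz group gave 441, 427 or 2736 calls, and leaving out replicate 1, 2 or 3 of the 500 Hz group gave 1648, 419 or 1657. A total of 266 probe sets passed whichever of these 6 arrays was left out. When arrays were centred on their medians, 1591 probe sets were higher and 845 lower, so the share of calls that were higher was 65.3% in place of 43.8%.

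Of the 2032 probe sets, 1078 had a single gene, 41 matched several genes and 913 were unnamed here. At 26.4% of all probe sets the 3 arrays of one frequency lay beyond the 3 of the other, 13.9% higher and 12.5% lower at 500 Hz. A gene symbol other than the locus code was available for 169 of the 2032 called probe sets, 64 higher and 105 lower at 500 Hz. Among these 169 genes, 22 passed whichever array was left out, 11 of them higher and 11 lower. A call not said below to have passed in this way was lost without at least 1 array: of the 117 genes named by the rule, 84 were lost without 250 Hz replicate 1, 84 without 250 Hz replicate 2, 87 without 500 Hz replicate 2 and 21 to 46 without any 1 of the other 3. The 15 largest rises and the 15 largest falls with a single named gene and no overlap between the groups are plotted with their errors, and 20 of these 30 also passed with the 6 arrays alone.

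**Figure D1:**
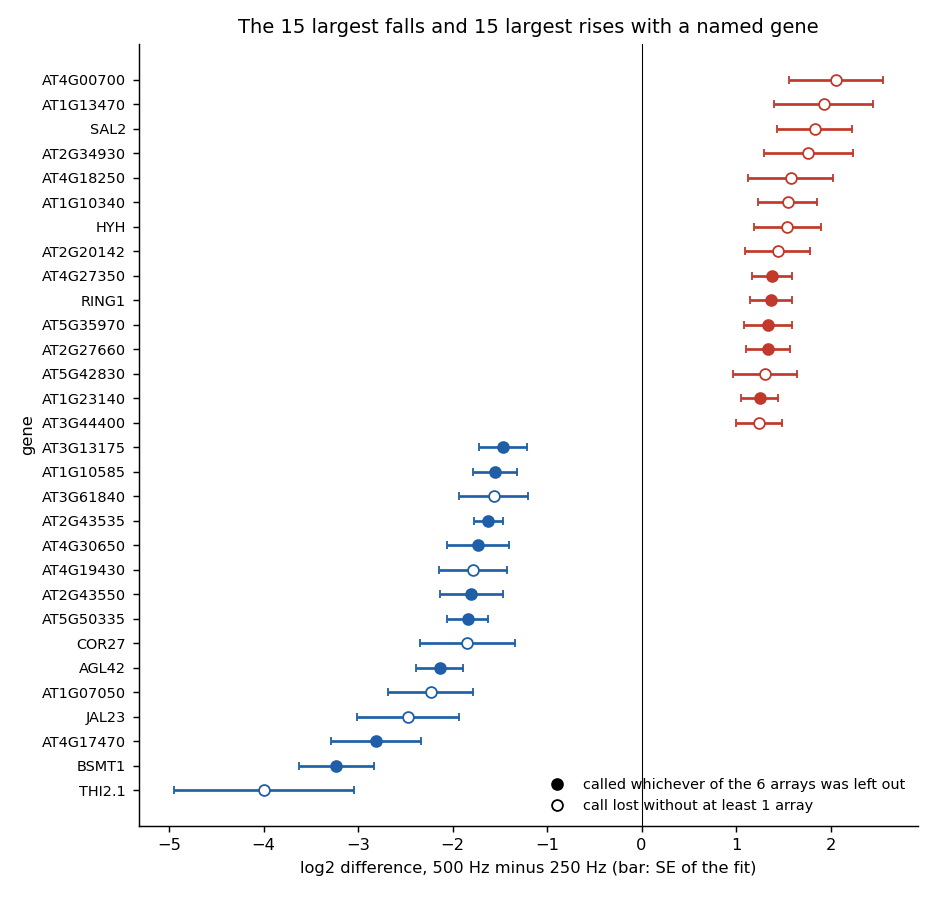
The 15 largest rises (red) and 15 largest falls (blue) at 500 Hz against 250 Hz among called probe sets with a single named gene and no overlap between the groups, as log2 difference with its standard error (3 arrays per group). Falls reach -3.99 for THI2.1 and rises reach 2.06 for AT4G00700, and the filled points mark the 14 genes called whichever of the 6 arrays was left out.

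The largest falls at 500 Hz with a gene symbol were THI2.1, BSMT1, JAL23 and AGL42. THI2.1 (AT1G72260), a small cysteine-rich antimicrobial thionin, read 11.39, 9.50 and 8.09 at 250 Hz and 3.99, 5.02 and 7.99 at 500 Hz. The groups did not overlap, but replicate 3 of each group lay close to the other. The difference was -3.99 ± 0.95 (SE, n = 3 per group, limma adjusted p = 0.0237), a 15.9-fold fall, and it missed the threshold without 250 Hz replicate 1 or 2 or 500 Hz replicate 1 or 2, with adjusted p up to 0.105. The second measured thionin gene, THI2.2 (AT5G36910), had a difference of -1.56 ± 0.65 (limma adjusted p = 0.145), with 9.80 on 250 Hz replicate 3 and 5.84 to 7.25 on the other 5 arrays.

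BSMT1 (AT3G11480), the methyltransferase that makes the volatile defence signals methyl salicylate and methyl benzoate, read 7.39, 8.11 and 6.01 at 250 Hz and 3.91, 3.89 and 4.01 at 500 Hz. Every 250 Hz array stood above every 500 Hz array. The 500 Hz arrays were tight, at values well below their array medians of 6.52 to 6.54. Whether such low values exceeded background was not tested, so the tightness and the fold change may be bounded by the low end of the scale. BSMT1 fell by 3.23 ± 0.40 (9.40-fold, limma adjusted p = 0.00148) and passed whichever array was left out. Its means were 3.88 at 1000 Hz, 4.21 at 2000 Hz, 4.40 at 3000 Hz and 4.08 in silence, so that the 250 Hz mean was the highest of the 6.

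AGL42 (AT5G62165), a MADS-box transcription factor known for delaying floral organ senescence and abscission, had a like shape over the 6 arrays, again with low 500 Hz values. It read 6.32, 6.81 and 6.09 at 250 Hz and 4.29, 4.17 and 4.35 at 500 Hz. AGL42 fell by 2.14 ± 0.25 on the log2 scale (4.40-fold, limma adjusted p = 0.00114), and it passed whichever array was left out. Means at 1000, 2000 and 3000 Hz were 4.21, 4.29 and 4.60, and the silent arrays spread from 4.40 to 6.31. Of the 44 AGAMOUS-like probe sets, for 42 genes, 2 were lower at 500 Hz and 0 higher, with a median difference of 0.05. The other was AGL24 (AT4G24540), which promotes flowering, at -0.69 ± 0.16 (limma adjusted p = 0.0233).

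**Figure D2:**
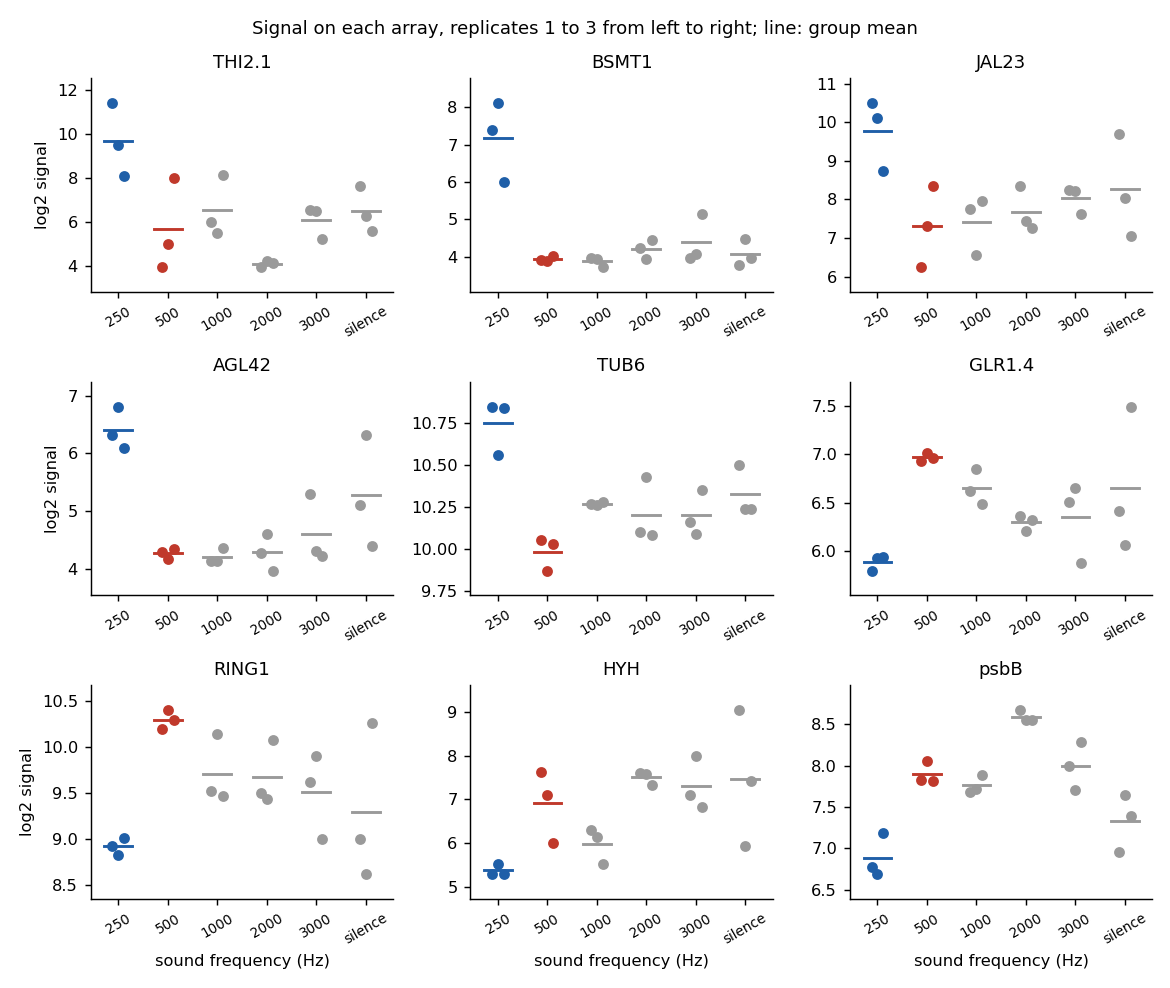
Log2 signal of 9 genes on each of the 18 arrays by sound frequency, with replicates 1 to 3 from left to right and a line at the group mean. BSMT1 and AGL42 have their highest means at 250 Hz, the 3 arrays of GLR1.4 and of RING1 at 500 Hz lie above the 3 at 250 Hz, and THI2.1 and JAL23 spread widely within both groups.

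Jacalin-related lectins are sugar-binding proteins that associate with PYK10, a myrosinase-like glucosidase of endoplasmic reticulum bodies. They gave 2 lower and 0 higher of 4, with a median of -0.95, in a list drawn up after these values had been seen. JAL23 (AT2G39330) read 10.50, 10.11 and 8.74 at 250 Hz and 6.25, 7.32 and 8.36 at 500 Hz. The groups did not overlap, and replicate 3 of each group lay nearest the other group. JAL23 fell by 2.47 ± 0.54 (5.55-fold, limma adjusted p = 0.0167), and JAL22 (AT2G39310) by 1.21 ± 0.32 (limma adjusted p = 0.0353). JAL33 (AT3G16450) and JAL34 (AT3G16460) had differences of -0.70 ± 0.27 and -0.39 ± 0.21 with adjusted p of 0.110 and 0.257 in limma. The call for JAL23 was lost without 250 Hz replicate 1 or 2 or 500 Hz replicate 2 (adjusted p up to 0.0793), and that for JAL22 without any of these or 500 Hz replicate 1 (adjusted p up to 0.137).

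Genes of the endoplasmic reticulum body itself had differences of the same sign that did not pass the threshold. NAI2 (AT3G15950), which is needed to form these bodies, was at -1.20 ± 0.39 (limma adjusted p = 0.0666). PYK10 (AT3G09260) was at -1.42 ± 0.55 (limma adjusted p = 0.119), with 6.64, 7.94 and 5.64 at 250 Hz and 4.32, 6.02 and 5.63 at 500 Hz. NAI1 (AT2G22770), their transcriptional regulator, was at -0.18 ± 0.15 (limma adjusted p = 0.467). The list of 6 joins these genes to JAL22, JAL23 and JAL33, so its 2 lower calls are JAL22 and JAL23, already counted above. It had 0 higher, all 6 differences were negative, and the median was -1.20. This list too was drawn up after the values had been seen. PYK10 is also a root marker. Of the 3 root markers measured (PYK10, EXPA7 and EXPA18) 0 passed, and the mean shift of the 3 ranged from -0.12 to 0.63 at 250 Hz and from -0.57 to -0.03 at 500 Hz. Its part in the lectin differences was not tested.

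Several of the largest falls were in genes that the annotation gives by locus alone. AT2G43535 read 8.60, 8.68 and 8.64 at 250 Hz and 6.87, 7.05 and 7.14 at 500 Hz. Its replicates were tight, and it had the lowest adjusted p of the 30 largest changes, at -1.62 ± 0.15 (limma adjusted p = 0.000364). AT2G43550, with 11.09, 11.37 and 11.45 at 250 Hz and 9.87, 9.31 and 9.33 at 500 Hz, fell by 1.80 ± 0.33 (limma adjusted p = 0.00966). AT4G17470 read 10.41, 10.34 and 9.25 at 250 Hz and 6.85, 7.17 and 7.55 at 500 Hz, and fell by 2.81 ± 0.47 (7.01-fold, limma adjusted p = 0.00689). All 3 genes passed whichever array was left out. So did AT5G50335, AT4G30650, AT1G10585 and AT3G13175, which fell by 1.84, 1.73, 1.55 and 1.47. AT1G07050 fell by 2.23 ± 0.45 (limma adjusted p = 0.0131) and was lost only without 500 Hz replicate 2 (adjusted p = 0.0526). AT4G19430 and AT3G61840, at -1.78 and -1.57, were lost without 2 and 3 of the arrays.

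LCR69 (AT2G02100), a plant defensin, was also lower, with 12.08, 12.07 and 11.70 at 250 Hz and 10.99, 11.11 and 11.47 at 500 Hz. Its difference was -0.76 ± 0.18 (limma adjusted p = 0.0214). It was the single call among 10 plant defensins, whose median difference was -0.04. The jasmonate list gave 0 calls of 5 in limma, 3 at an unadjusted p under 0.05 (26.8% of all probe sets were) and 0 with the 6 arrays alone, with a median of -0.13.

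Genes linked to cold and water stress were split. COR27 (AT5G42900), a cold- and clock-regulated gene, read 9.37, 9.37 and 10.42 at 250 Hz and 7.04, 7.79 and 8.80 at 500 Hz. It fell by 1.84 ± 0.50 (3.59-fold, limma adjusted p = 0.0369). COR15A (AT2G42540), a chloroplast protein that protects membranes in the cold, fell by 0.95 ± 0.26 (limma adjusted p = 0.0354). Both missed the threshold without 5 of the 6 arrays, all but 500 Hz replicate 3, with adjusted p up to 0.110 for COR27 and 0.135 for COR15A. Among 11 cold-regulated and dehydrin genes 2 were lower and 1 higher, and the median was 0.05. Of their differences 6 were positive, the highest at 0.29, and 5 were negative. LTI30 and COR15B stood at -0.80 and -0.63 with adjusted p of 0.159 and 0.235 in limma.

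Tubulins, histones and cell cycle genes had members that were lower at 500 Hz and none that were higher. Over all probe sets, 5.02% were lower and 3.91% higher. Of 7 tubulin genes, whose products build microtubules, 4 were lower and 0 higher, the median difference was -0.58, and 6 of the 7 differences were negative. TUB6 (AT5G12250) read 10.85, 10.56 and 10.84 at 250 Hz and 10.05, 9.87 and 10.03 at 500 Hz. All 3 arrays at 500 Hz were below all 3 at 250 Hz, and TUB6 fell by 0.77 ± 0.11 (1.70-fold, limma adjusted p = 0.00384), passing whichever array was left out. TUB1 (AT1G75780) fell by 1.03 ± 0.29 (limma adjusted p = 0.0436), TUA6 (AT4G14960) by 0.58 ± 0.12 (limma adjusted p = 0.0152) and TUB7 (AT2G29550) by 0.52 ± 0.14 (limma adjusted p = 0.0348). TUB5 and TUB9 were at -0.70 and -0.40 with adjusted p of 0.0551 and 0.0769, and TUA1 was at 0.34 with 0.107. The count of lower tubulins was 2, 1 or 3 when replicate 1, 2 or 3 at 250 Hz was left out, and 2, 1 or 4 when replicate 1, 2 or 3 at 500 Hz was, and it was 2 with the 6 arrays alone. Tubulin and histone genes are close paralogues, so their probe sets may share signal.

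Histone genes gave 4 lower and 0 higher of 7, all 7 differences were negative, and the median was -0.41. HTB2 (AT5G22880), a histone H2B, read 9.51, 9.48 and 9.22 at 250 Hz and 8.93, 8.48 and 8.49 at 500 Hz. It fell by 0.77 ± 0.16 (limma adjusted p = 0.0143). The H2B genes HTB1 (AT1G07790) and HTB11 (AT3G46030) fell by 0.57 and 0.48, and HON4 (AT3G18035), a linker histone-like protein, by 0.41. The count of lower histones was 0, 0 or 4 when replicate 1, 2 or 3 at 250 Hz was left out, and 4, 0 or 1 when replicate 1, 2 or 3 at 500 Hz was. It was 1 with the 6 arrays alone and 2 with arrays centred on their medians.

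Cell cycle and replication genes gave 3 lower and 0 higher of 8, with a median of -0.44 and 1 positive difference. PRL (AT4G02060), the MCM7 subunit of the replicative helicase, fell by 0.60 ± 0.15 (limma adjusted p = 0.0254). AUR3 (AT2G45490), an Aurora kinase of mitosis, fell by 0.46 ± 0.12 (limma adjusted p = 0.0354), and HBT (AT2G20000), the CDC27b subunit of the anaphase-promoting complex, by 0.41 ± 0.09 (limma adjusted p = 0.0159). AUR2 and AUR1 were at -0.64 and -0.31 with adjusted p of 0.0741 and 0.201. In the same order, the count of lower genes in this list was 0, 0 or 5 with a 250 Hz array left out, and 1, 0 or 4 with a 500 Hz array left out; it was 0 with the 6 arrays alone.

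Further called genes with roles in division or the cytoskeleton were picked after their values had been seen. FU (AT1G50240), the FUSED kinase of the phragmoplast, fell by 0.62 ± 0.12 (limma adjusted p = 0.0104). TCP15 (AT1G69690), a transcription factor of leaf cell proliferation, read 8.13, 7.93 and 7.26 at 250 Hz, averaged 6.74 at 500 Hz (SD 0.29) and fell by 1.03 ± 0.19 (limma adjusted p = 0.00989). Both passed whichever array was left out. UBC20 (AT1G50490), a ubiquitin-conjugating enzyme of mitotic cells, fell by 0.77 ± 0.18 (limma adjusted p = 0.0208). The actin-bundling proteins WLIM1 (AT1G10200) and WLIM2a (AT2G39900) fell by 0.82 ± 0.13 and 0.80 ± 0.17 (limma adjusted p = 0.00578 and 0.0166), and the median of the 5 LIM genes was -0.23. WLIM1 read 10.15 to 10.46 at 250 Hz and 9.39 to 9.63 at 500 Hz and passed whichever array was left out.

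The IQD family, calmodulin-binding scaffolds of microtubules, had 3 lower and 0 higher of 15, with a median of -0.28. IQD30, IQD31 and IQD26 fell by 0.64, 0.47 and 0.29. The 3 calls were lost without each of 250 Hz replicate 1, 250 Hz replicate 2 and 500 Hz replicate 2, when 0 passed, and 1 of the family passed without 500 Hz replicate 3.

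**Figure D3:**
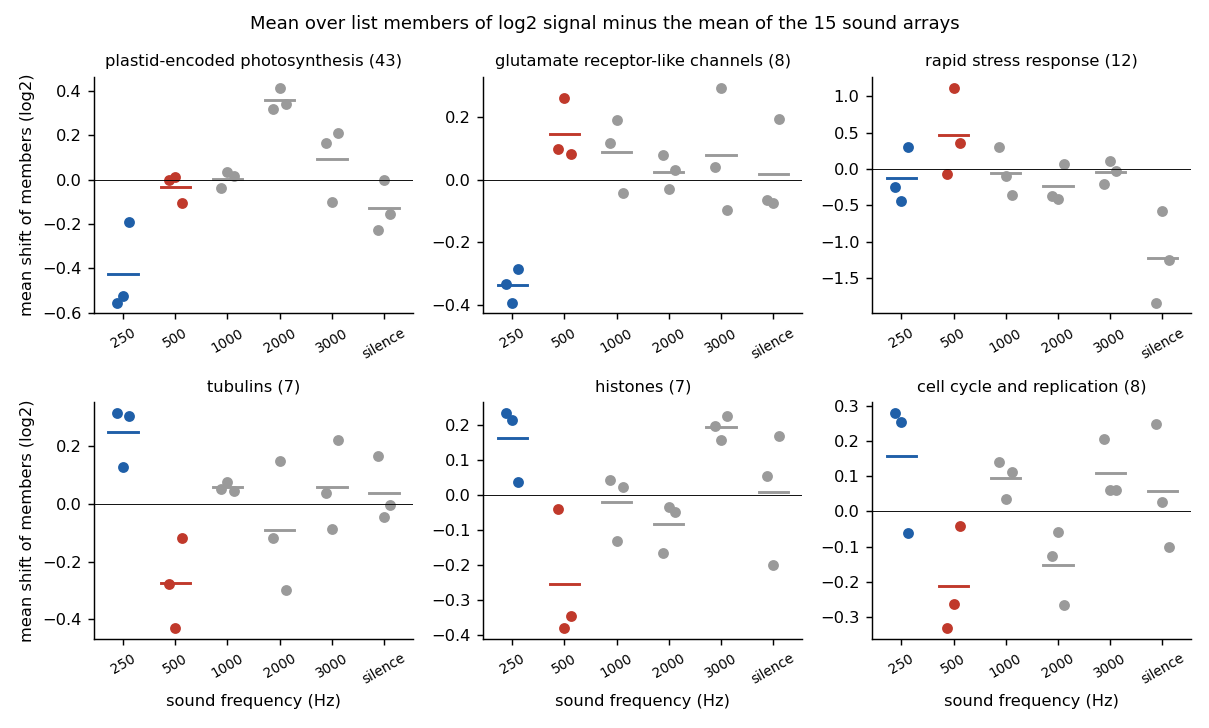
Mean over the members of 6 gene lists of each array's log2 signal minus the mean of the 15 sound arrays, by sound frequency, with a line at the group mean and the number of probe sets in brackets. Plastid-encoded photosynthesis genes are lowest on the 250 Hz arrays (-0.55 to -0.19), tubulins lie at 0.13 to 0.32 at 250 Hz and -0.43 to -0.12 at 500 Hz, and rapid stress genes stand at 1.11 on 500 Hz replicate 2.

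In the epidermal list, 2 of 7 genes were lower at 500 Hz, 0 higher, and all 7 differences were negative with a median of -0.27. STOMAGEN (AT4G12970), a secreted peptide of the leaf interior that promotes stomata, read 9.40, 9.81 and 9.56 at 250 Hz and 9.15, 8.36 and 7.77 at 500 Hz. It fell by 1.16 ± 0.27 (limma adjusted p = 0.0217). FAMA (FMA in the annotation, AT3G24140), which drives guard cell differentiation, fell by 0.62 ± 0.16 (limma adjusted p = 0.0280). SPCH and MUTE, which act earlier in the same lineage, were at -0.27 and -0.06 with adjusted p of 0.251 and 0.672. Both calls were lost without 250 Hz replicate 1, 250 Hz replicate 2, 500 Hz replicate 2 or 500 Hz replicate 3.

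Cell wall families were not uniform. EXPA4 (AT2G39700), a wall-loosening expansin, read 8.61, 8.36 and 8.04 at 250 Hz and 7.51, 7.37 and 7.49 at 500 Hz. It fell by 0.88 ± 0.12 (1.84-fold, limma adjusted p = 0.00384) and passed whichever array was left out, while the other 18 expansins did not pass and the family median was 0.01. The endoglucanases GH9C2 (AT1G64390) and GH9B13 (AT4G02290) fell by 0.84 and 0.73, 2 of 15 in their family, whose median was close to 0. XTH33 (AT1G10550), a xyloglucan endotransglucosylase of the wall, went the other way. It read 7.94, 7.79 and 7.67 at 250 Hz and 9.35, 8.47 and 8.91 at 500 Hz and rose by 1.11 ± 0.25 (2.16-fold, limma adjusted p = 0.0181), the single call among 10 XTH genes, lost without 250 Hz replicate 1 or 2 or 500 Hz replicate 1 (adjusted p up to 0.0632). XTH18 and XTH19 were at 1.62 and 1.11 with adjusted p of 0.0604 and 0.118, and their groups overlapped. Among 24 probe sets for 23 TBL genes, which acetylate wall polysaccharides, 2 were higher and 3 lower. These were 8.33% and 12.5% of the TBL probe sets, against 3.91% and 5.02% of all probe sets.

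Secreted peptides that signal at the wall were lower where called. RALFL34 (AT5G67070) read 11.40, 11.39 and 11.07 at 250 Hz and 10.56, 10.39 and 10.59 at 500 Hz and fell by 0.77 ± 0.13 (limma adjusted p = 0.00578), passing whichever array was left out. RALFL32 (AT4G14010) fell by 0.40 ± 0.10 (limma adjusted p = 0.0232), so that 2 of 10 RALF-like genes were lower, with a median of -0.05. CLE41 (AT3G24770), a peptide that maintains vascular stem cells, fell by 0.58 ± 0.11 (limma adjusted p = 0.0113). It was the 1 call among 6 CLE genes, whose median was -0.16. The receptor FER (AT3G51550), which binds RALF peptides, was higher by 0.38 ± 0.09 (limma adjusted p = 0.0255). PSY1R (AT1G72300), the receptor kinase named for the peptide PSY1, was higher by 0.76 ± 0.12 (limma adjusted p = 0.00540) and passed whichever array was left out. These 2 receptors were picked after their values had been seen. No list of receptor kinases was described, and a link between receptors and peptides was not tested.

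Genes of the starch and SWEET lists were lower where called. DPE1 (AT5G64860), the disproportionating enzyme of starch breakdown, read 8.86, 8.96 and 9.56 at 250 Hz and 8.09, 7.98 and 8.36 at 500 Hz and fell by 0.98 ± 0.25 (limma adjusted p = 0.0299). PWD at AT5G26570, the phosphoglucan water dikinase, fell by 0.83 ± 0.23 (limma adjusted p = 0.0419), whereas the other locus with that symbol, AT4G24450, was at 0.40 (limma adjusted p = 0.290). These were 2 of 7 starch probe sets, with a median of -0.16, in a list drawn up after these values had been seen. The vacuolar sugar carriers SWEET16 (AT3G16690) and SWEET17 (AT4G15920) fell by 0.71 and 0.40, 2 of 16 SWEET genes, whose median was 0.08. Over all probe sets 5.02% were lower. The call for DPE1 held only without 500 Hz replicate 3, and that for PWD missed the threshold without any 1 of the 6 arrays, with adjusted p up to 0.106 and 0.154.

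Genes encoded in the chloroplast formed the largest group of rises among the lists. Of 43 plastid-encoded photosynthesis genes 15 were higher at 500 Hz and 0 lower, against 3.91% higher over all probe sets. Many of these genes are transcribed together in clusters, so the 15 calls are not independent of each other. Their median difference was 0.41, and 39 of the 43 differences were positive. psbB, which encodes the CP47 antenna of photosystem II, read 6.77, 6.69 and 7.18 at 250 Hz and 7.82, 8.06 and 7.81 at 500 Hz. The rise was 1.02 ± 0.15 (2.02-fold, limma adjusted p = 0.00418), and psbB alone of the 43 passed whichever array was left out.

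The other plastid calls spanned the complexes of the thylakoid. ndhG, a subunit of the NDH complex of cyclic electron flow, read 5.40, 5.75 and 6.40 at 250 Hz and 6.88, 7.26 and 6.66 at 500 Hz and rose by 1.08 ± 0.24 (limma adjusted p = 0.0192). psbD, for the D2 reaction centre protein, rose by 0.92 ± 0.18 (limma adjusted p = 0.0121), and psbT, a small photosystem II subunit, by 0.86 ± 0.18 (limma adjusted p = 0.0143). By complex, 7 of 15 photosystem II genes were higher, with 1 of 5 of photosystem I, 2 of 6 of the cytochrome b6f complex, 2 of 6 of ATP synthase and 3 of 10 of the NDH complex. psbA, for the D1 protein, rose by 0.44 ± 0.11 (limma adjusted p = 0.0270). rbcL, for the large subunit of Rubisco, was at 0.42 ± 0.18 (limma adjusted p = 0.160).

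The 15 plastid photosynthesis calls other than psbA and psaA lay in runs of the annotated gene order, whereas psbA and psaA, which rose by 0.44 and 0.69, had no called neighbour. The genes on either side of psaA narrowly missed the threshold: psaB was at 0.44 and ycf3 at 0.92, with adjusted p of 0.0523 and 0.0506 in limma. In the run psbB, psbT, psbN, psbH, petB, petD, all but psbN were higher, by 1.02, 0.86, 0.59, 0.41 and 0.52, and psbN, which lies on the opposite strand, was at 0.34 ± 0.13 (limma adjusted p = 0.121). psbD, psbC and psbZ rose by 0.92, 0.66 and 0.35. ndhD, ndhE and ndhG rose by 0.44, 0.73 and 1.08, with psaC between them at 0.55 ± 0.25 (limma adjusted p = 0.175), and the next genes ndhI, ndhA and ndhH were not called, at 0.04, 0.14 and 0.25. atpA and atpF rose by 0.54 and 0.69, and the adjoining atpH and atpI were at 0.73 and 0.50 with adjusted p of 0.0579 and 0.115. Elsewhere, psbK, psbI and psbM stood between -0.11 and -0.08.

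**Figure D4:**
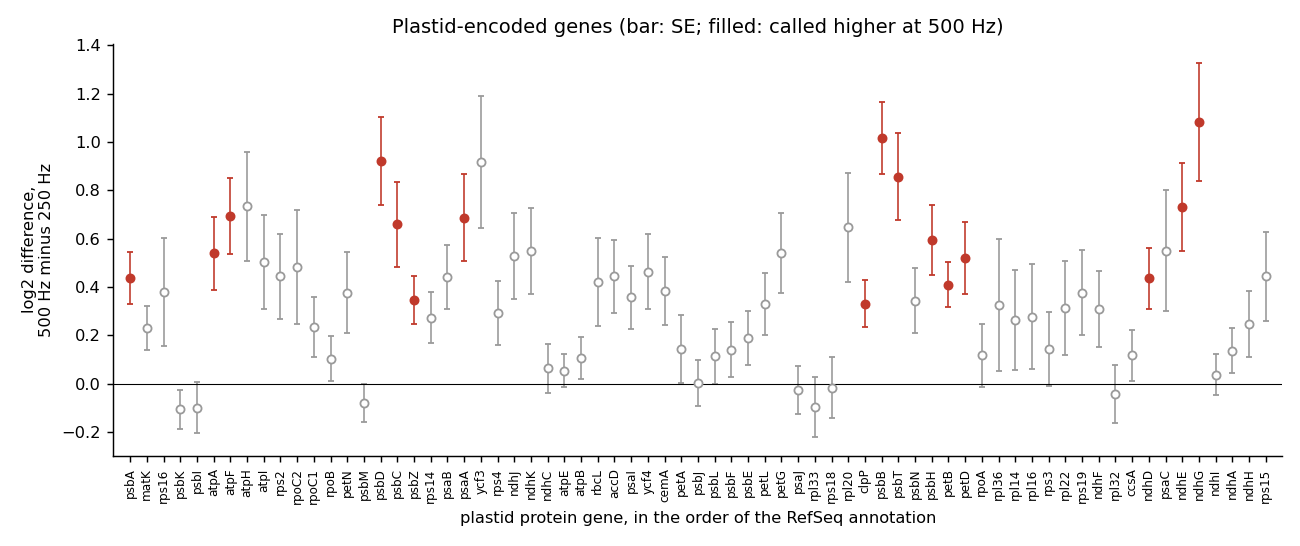
Log2 difference, 500 Hz minus 250 Hz, with its standard error for plastid-encoded protein genes in annotation order, filled where called higher. Called genes lie side by side at atpA and atpF, at psbD to psbZ, from psbB to petD with psbN open between them, and at ndhD, ndhE and ndhG with psaC open between them, and the highest difference is 1.08 for ndhG.

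The plastid difference lay mostly in the 250 Hz group. For 36 of the 43 photosynthesis genes the 250 Hz mean was the lowest of the 6 groups, and for 0 was the 500 Hz mean the highest. Relative to the mean of the 15 sound arrays, the list stood at -0.55, -0.53 and -0.19 on the 250 Hz arrays and between -0.11 and 0.01 on the 500 Hz arrays. The 2000 Hz arrays, with the higher poly-A spike signal given above, lay between 0.32 and 0.41 and the silent arrays between -0.23 and a value near 0. 250 Hz replicate 3 thus stood nearer to the 500 Hz arrays than its own replicates did. The count of higher genes was 1, 1 or 26 of 43 when replicate 1, 2 or 3 at 250 Hz was left out, and 6, 2 or 13 when replicate 1, 2 or 3 at 500 Hz was. With the 6 arrays alone 2 of the 43 passed.

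Plastid gene expression genes, for the polymerase, ribosome and protease of the chloroplast, gave 1 call of 21, clpP at 0.33 ± 0.10 (limma adjusted p = 0.0489), although 18 of the 21 differences were positive, with a median of 0.28. Without 250 Hz replicate 3 the count was 11, and it was 0 without any 1 of the other 5 arrays. Nuclear photosynthesis genes gave 0 calls of 17 in limma, 1 at an unadjusted p under 0.05 and 1 with the 6 arrays alone, with a median of 0.10. The 23 probe sets for 16 genes of the mitochondrial genome gave 0 calls, 1 at an unadjusted p under 0.05 and 0 with the 6 arrays alone, with a median of 0.01. The largest nuclear value was 0.52 for LHCB4.2, and PORB, a protochlorophyllide reductase, was at -0.49. The 3′ excess of actin overlapped between the 2 groups, and its part in the plastid differences was not tested. Nor was the part of RNA priming and labelling in the plastid signals.

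Glutamate receptor-like channels were higher at 500 Hz than at 250 Hz in a subset. Of 8 measured genes 3 were higher and 0 lower, all 8 differences were positive, and the median was 0.20. The difference lay mostly in the 250 Hz group. For 7 of the 8 the 250 Hz mean was the lowest of the 6 groups, and for 4 the 500 Hz mean was the highest. Relative to the mean of the sound arrays, the list averaged -0.34 at 250 Hz and 0.15 at 500 Hz. It averaged 0.09, 0.03 and 0.08 at 1000, 2000 and 3000 Hz and 0.02 in silence. The 2000 and 3000 Hz arrays had the higher poly-A spike signal given above. GLR1.4 (AT3G07520) read 5.80, 5.93 and 5.94 at 250 Hz and 6.93, 7.01 and 6.96 at 500 Hz. Each group was tight, and GLR1.4 rose by 1.08 ± 0.16 (2.11-fold, limma adjusted p = 0.00396). GLR2.7 (AT2G29120) read 6.63, 6.40 and 6.95 at 250 Hz and 7.99, 7.94 and 7.49 at 500 Hz and rose by 1.15 ± 0.18 (2.21-fold, limma adjusted p = 0.00535). Both passed whichever array was left out. GLR2.8 (AT2G29110), which adjoins GLR2.7, rose by 1.06 ± 0.30 (limma adjusted p = 0.0455) and was lost without every array other than 500 Hz replicate 3, with adjusted p up to 0.173. The next gene, GLR2.9, read 3.88 to 4.43 on the 6 arrays and was at 0.26 ± 0.11 (limma adjusted p = 0.146). GLR3.3 and GLR3.6, the members known from wound signalling, were at 0.01 and 0.05 with adjusted p of 0.976 and 0.795.

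RING1 and 2 genes of the rapid stress list were higher at 500 Hz. RING1 (AT5G10380), a ubiquitin ligase linked to programmed cell death, read 8.92, 8.83 and 9.01 at 250 Hz and 10.19, 10.40 and 10.29 at 500 Hz. Both groups were tight and did not overlap, and RING1 rose by 1.37 ± 0.22 (2.59-fold, limma adjusted p = 0.00578), passing whichever array was left out. WRKY22 (AT4G01250), a transcription factor of the immune response, read 7.25, 7.15 and 7.88 at 250 Hz and 7.68, 8.45 and 8.88 at 500 Hz and was higher by 0.91 ± 0.25 (limma adjusted p = 0.0407), although the groups overlapped. PUB22 (AT3G52450), a ubiquitin ligase that dampens immune signalling, rose by 0.66 ± 0.19 (limma adjusted p = 0.0471). They were the 2 calls among 12 rapid stress genes, of which 0 were lower, 11 differences were positive and the median was 0.60.

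The rapid stress list varied within the 500 Hz group. Its mean shift was -0.07, 1.11 and 0.36 on the 500 Hz arrays and -0.25, -0.45 and 0.30 on the 250 Hz arrays. CML37 (AT5G42380), a calmodulin-like protein, read 8.55 on 500 Hz replicate 2 and 3.84 to 5.66 on the other 5 arrays, and its difference of 1.34 ± 0.81 did not pass (limma adjusted p = 0.302). CML38 (AT1G76650) was at 0.69 ± 0.47 (limma adjusted p = 0.365), with 10.47 and 10.19 on 500 Hz replicates 2 and 3 and 8.36 on replicate 1. EXO (AT4G08950), a brassinosteroid-induced gene of cell expansion, was at 0.02 ± 0.14 (limma adjusted p = 0.933). Of the 12 genes, 3 passed when either 250 Hz replicate 3 or 500 Hz replicate 1 was left out, and 0 when any of the other 4 arrays was. The 8 calmodulin-like genes gave 0 calls in limma, 2 at an unadjusted p under 0.05 and 0 with the 6 arrays alone.

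HYH, SAL2 and APS4 rose at 500 Hz. HYH (AT3G17609), the close homologue of the light-signalling factor HY5, read 5.30, 5.53 and 5.29 at 250 Hz and 7.64, 7.10 and 6.01 at 500 Hz. It rose by 1.54 ± 0.35 (2.91-fold, limma adjusted p = 0.0203), and its means were 5.98 at 1000 Hz, 7.51 at 2000 Hz, 7.30 at 3000 Hz and 7.47 in silence, so that 250 Hz was the lowest of the 6. It was the single call among 21 bZIP genes and was lost without 250 Hz replicate 1 or 2 or 500 Hz replicate 1 or 2, with adjusted p up to 0.0757. SAL2 (AT5G64000), a relative of the phosphatase SAL1 of retrograde signalling, read 6.23, 6.39 and 5.78 at 250 Hz and 8.22, 8.42 and 7.26 at 500 Hz and rose by 1.83 ± 0.40 (3.56-fold, limma adjusted p = 0.0164), a call lost without 250 Hz replicate 1 or 500 Hz replicate 2. APS4 (AT5G43780), an ATP sulfurylase that starts sulfate assimilation, read 8.39, 8.09 and 8.19 at 250 Hz and 9.22, 9.26 and 9.09 at 500 Hz. APS4 rose by 0.97 ± 0.17 (limma adjusted p = 0.00863), passed whichever array was left out and was the single call among 10 glucosinolate and sulfur genes. Glutathione reductase (GR, AT3G54660), of plastids and mitochondria, was higher by 0.51 ± 0.08 (limma adjusted p = 0.00566), passed whichever array was left out and was picked after its value had been seen.

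Rises in genes given by locus alone were as large. AT4G00700 read 5.68, 5.15 and 5.19 at 250 Hz and 7.56, 8.50 and 6.13 at 500 Hz and rose by 2.06 ± 0.50 (4.16-fold, limma adjusted p = 0.0248), the largest rise among single named genes. AT1G13470 rose by 1.93 ± 0.52 (limma adjusted p = 0.0366), from 6.51, 5.37 and 5.85 to 7.88, 8.37 and 7.26. Both calls were lost without 250 Hz replicate 1 or 2 or 500 Hz replicate 1 or 2, and that for AT1G13470 also without 250 Hz replicate 3. AT5G35970, AT4G27350, AT2G27660 and AT1G23140 rose by 1.34, 1.38, 1.34 and 1.25 and passed whichever array was left out. AT5G35970 read 9.43 to 9.63 at 250 Hz and 10.74 to 11.10 at 500 Hz. AT2G34930, AT4G18250, AT1G10340, AT2G20142, AT5G42830 and AT3G44400 rose by 1.25 to 1.77, and each was lost without 2 or more of the arrays.

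The UGT family had calls in both directions. Among 51 UGT glycosyltransferases, which attach sugars to hormones and secondary metabolites, 4 were higher and 5 lower, with a median of 0.06. These were 7.84% and 9.80% of the family, against 3.91% and 5.02% of all probe sets. UGT76E12, UGT73B1, UGT71B1 and UGT76E11 fell by 0.95, 0.92, 0.78 and 0.78. UGT72E2 and UGT72E3, which act on lignin precursors, rose by 0.38 and 0.30. Each of these 6 calls was lost without 3 or more of the arrays. Of 8 aldehyde dehydrogenases 2 were lower, ALDH10A8 by 0.39 and ALDH22A1 by 0.29, all 8 differences were negative, and the median was -0.26. In the endoplasmic reticulum, the calreticulin CRT1b and PDIL5-1 fell by 0.52 and 0.34 while ATERDJ2B rose by 0.47, the 3 calls among 12 probe sets for 11 genes of the unfolded protein response and chaperones.

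**Figure D5:**
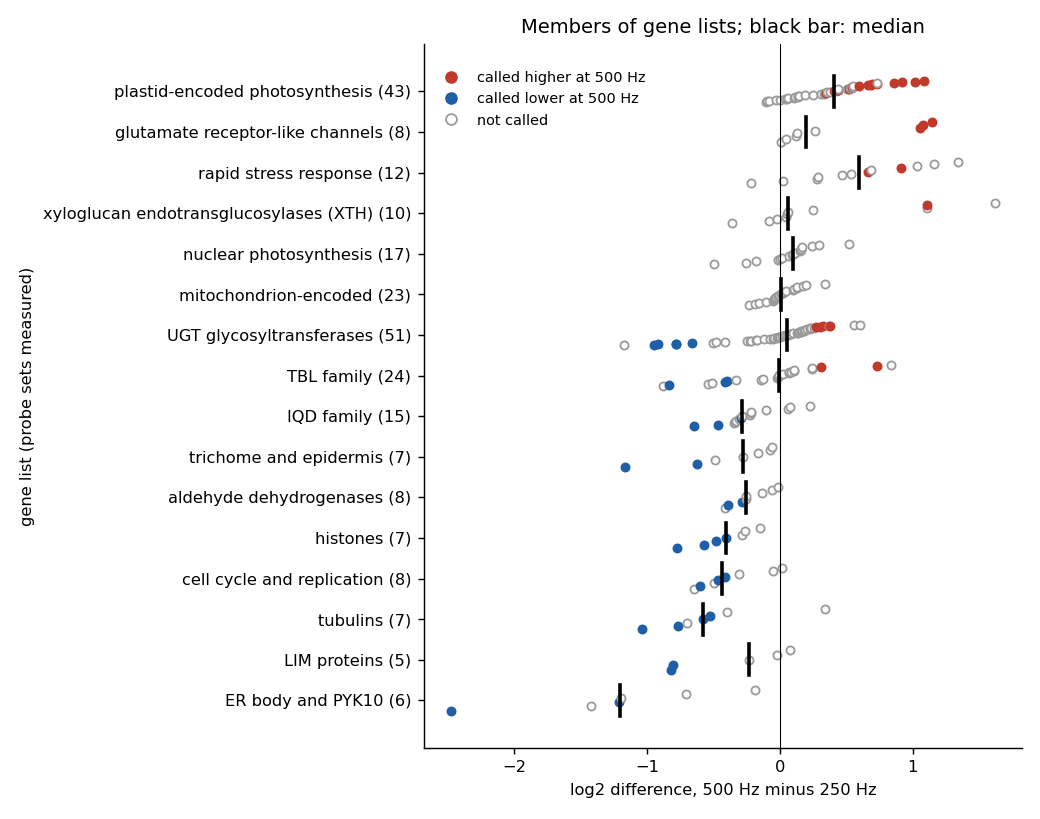
Log2 difference, 500 Hz minus 250 Hz, of every measured member of 16 gene lists, coloured where called and open where not, with a black bar at the list median and the number of probe sets in brackets. Plastid-encoded photosynthesis lies mostly above 0 (median 0.41), and tubulins (-0.58), histones (-0.41) and cell cycle genes (-0.44) lie mostly below.

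Over the 60 lists described, 41 of 745 member probe sets were higher and 63 lower. Of all probe sets, 3.91% were higher and 5.02% lower. The 60 include the lectin, LIM, starch, thionin and endoplasmic reticulum body lists, which were drawn up after the values had been seen. Those lists held lower calls and 0 higher ones, so the pooled counts cannot show an excess over all probe sets. In 14 lists there were 0 calls. Heat shock and cytosolic chaperones had 0 calls of 11 in limma, 2 at an unadjusted p under 0.05 and 0 with the 6 arrays alone, with a median of -0.06. ATG8 autophagy genes had 0 of 9, with a median of 0.07, and 3 of the 9 at an unadjusted p under 0.05. NPF transporters had 0 of 11 on both counts, with a median of 0.11, and flavonoid and phenylpropanoid genes 0 of 6 on both, with a median of -0.23.

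Set among the other frequencies, the 890 higher probe sets had 250 Hz as the lowest of the 5 sound groups in 581 cases and 500 Hz as the highest in 663. Of the 1142 lower probe sets, 250 Hz was the highest in 829 and 500 Hz the lowest in 789. The 1000 Hz mean lay nearer to 500 Hz than to 250 Hz for 576 of the 890 (64.7%) and for 600 of the 1142 (52.5%). The 2000 Hz mean lay nearer to 500 Hz for 369 of the 890 (41.5%) and 661 of the 1142 (57.9%), and the 3000 Hz mean for 362 (40.7%) and 533 (46.7%). The silent mean lay nearer to 500 Hz for 225 of the 890 (25.3%) and for 387 of the 1142 (33.9%). These positions use the arrays that chose the probe sets and are given as a description. The 2000 and 3000 Hz arrays also had the higher poly-A spike signals given above.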

How the data were processed

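Per the labels, RNA of rosettes was hybridised to Affymetrix arrays of 1 colour. The authors deposited 1 table of log2 signals per probe set, and the submitters' processing notes name Affymetrix Expression Console 1.1, RMA and MAS5, without saying which made these values. The deposited log2 values were used without further normalization. After the manufacturer's control probe sets had been removed, 22746 remained for a test with limma 3.58.1 in R 4.3.3 (1 mean per group over the 15 arrays of the 5 sound groups, intensity trend, two-sided contrast of 500 Hz minus 250 Hz, Benjamini-Hochberg over all probe sets), which leaves 10 residual degrees of freedom. A call means an adjusted p under 0.05, and the calculation was tested on simulated data. The number of arrays limits the precision.

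Genes were named through the platform annotation and RefSeq: 13513 probe sets had 1 gene, 503 several and 8730 none named here. Named were the 15 largest rises and 15 largest falls among called, single-gene probe sets without overlap. Up to 4 called members per list and direction were also named, with or without overlap. Other genes were picked after their values had been seen, among them further list members, called or not. Members and lists were chosen with earlier results of these data known. Lists are described by counts and medians. Promoter sequences were not used here. Alternatives were other sets of arrays, other normalizations, filters and variance models, a replicate block and leaving out each array.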

Additional observations from a re-analysis of the deposited data

How the results depend on the processing

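The number of calls depended on the arrays used, on their weighting and on the threshold. It was 601 (287 higher, 314 lower) with the 6 arrays alone, 774 (276 and 498) with the silent arrays included, 3193 (1346 and 1847) with array weights and 221 (96 and 125) where 2-fold was also required, against 2032 (890 and 1142). Leaving out 1 array gave 419 to 2736 calls, 173 to 1037 higher and 217 to 1699 lower. Centring arrays on their medians moved the median of all probe sets from 0.02 to 0.08 and gave 1591 higher and 845 lower. Quantile normalization (1907), no trend (2140), robust variance (1980), the 9 arrays up to 1000 Hz (1455) and leaving out the dimmest 25% (2105) stayed within 1.5 times. With the replicate number as a replicate block the count was 1692. In their deviations from the group means, same-numbered arrays of the 2 groups correlated at -0.14, -0.32 and -0.06. Arrays of unlike number correlated at -0.14 to 0.30. With 3 arrays per group these values cannot show whether the numbers pair the samples. Of the 117 genes named by the rule, 65 lost their call with the 6 arrays alone, 57 with 18 arrays, 19 under the replicate block and 21 to 87 with 1 array left out, and 0 reversed. Under centring or quantile normalization the median changed sign in 13 of the 60 lists, each with a median no further than 0.05 from 0, among them expansins, TBL, GH9 cellulases, plant defensins, RALF-like and mitochondria-encoded genes. The cause was not tested. The 3 arrays per group limit the precision, and signal over background was not used here.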

Other observations

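Further genes with a symbol that passed whichever array was left out are given here as values. On the higher side at 500 Hz, cwINV6 (AT5G11920), a fructan-cleaving relative of cell wall invertases, read 4.33 to 4.44 at 250 Hz and 5.05 to 5.49 at 500 Hz and rose by 0.83 ± 0.12 (limma adjusted p = 0.00384). LUP5 (AT1G66960), of the lupeol synthase family of triterpene enzymes, rose by 0.65 ± 0.08 (limma adjusted p = 0.00114). OBE1 (AT3G07780), a PHD finger protein needed in the embryonic meristem, rose by 0.64 ± 0.10 (limma adjusted p = 0.00547). IAA33 (AT5G57420), of the Aux/IAA family of auxin signalling, rose by 0.38 ± 0.06 (limma adjusted p = 0.00469). On the lower side, TBL39 (AT2G42570) fell by 0.83 ± 0.16 (limma adjusted p = 0.00996), BGLU45 (AT1G61810), a glucosidase of lignin precursors, by 0.63 ± 0.12 (limma adjusted p = 0.0100) and TRM24 (AT5G51850) by 0.38 ± 0.07 (limma adjusted p = 0.00994).

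Adjacent nuclear genes in the annotation formed 5814 measured pairs, of which both genes were called in 50 pairs. Of all probe sets taken singly, 8.93% were called, and whether 50 exceeds what independent calls would give was not tested. In 25 of the 50 both moved the same way, 10 pairs higher and 15 lower, and in the rest they moved opposite ways, so direction was evenly split. The tandem genes GLR2.8 and GLR2.7 were 1 of the higher pairs.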
